A study of Mus musculus with 12 samples.

Results

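Chondroitin sulfate is made by a small set of enzymes and transporters, and 10 of the genes that encode them were followed here through 12 libraries of mouse cartilage cells. They were chosen by symbol for their steps in the pathway, from donor supply through chain start and chain growth to sulfation. The choice was made with earlier results of these data known. All 10 were found among the 17536 genes of the deposited table. The study deleted Runx3 from cartilage and profiled, by RNA sequencing, cells of the superficial zone (SFZ) and the deep zone (DZ) from mice 5 days old (C57BL/6 in the labels, C57BL/6J in the methods). Each of 4 groups has 3 libraries: R3-Cntl SFZ and R3-Cntl DZ, from mice with the floxed Runx3 fl/fl alleles alone, and R3-cKO SFZ and R3-cKO DZ, from Col2a1-Cre; Runx3 fl/fl littermates. Cre is driven by the promoter of the type II collagen gene, so deletion is aimed at chondrocytes, and both groups carry the floxed alleles. Zones were separated by sequential enzyme digestion of the ends of the femur and tibia, SFZ cells first and DZ cells from the residue, and the methods state monolayer culture for the cells of all experiments. The labels distinguish replicates by number alone, so each test below measures spread between libraries.

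The values are FPKM (fragments normalised to transcript length and library size), a unit inferred from the numbers themselves, scaled between libraries by the trimmed mean of M values (TMM). Their totals run from 392240.85 to 429212.93 FPKM per library, and the sequencing depth behind them is unknown. Differences are on the scale of log2(FPKM + 1), where 1 unit is a doubling for abundant genes and where the size of a change in a gene near 1 FPKM is understated.

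Runx3 itself (gene ID 12399, chr4:134676567-134733905, forward strand, mm9) read 10.7, 5.98 and 6.65 FPKM in R3-Cntl SFZ, 11.8, 9.07 and 3.42 in R3-cKO SFZ, 12.7, 12.7 and 7.66 in R3-Cntl DZ and 15.95, 12.7 and 8.14 in R3-cKO DZ. Its summed transcript level was not lower in the libraries labelled R3-cKO, with log2 differences of -0.04 (SE 0.427) in SFZ and 0.13 (SE 0.282) in DZ. Whether the floxed exon was missing from these transcripts cannot be read from a value per gene, so the groups are named by their labels throughout. The study reports lower Prg4, the lubricin gene, in R3-cKO SFZ cells. Here Prg4 ran from 2.13 to 6.95 FPKM in R3-cKO SFZ and from 7.13 to 22.2 in R3-Cntl SFZ. In DZ it ran from 1.32 to 5.72 FPKM in R3-cKO and from 1.22 to 1.47 in R3-Cntl. Transcripts of 4 Y-linked genes (Ddx3y, Eif2s3y, Kdm5d and Uty) were at or under 0.04 FPKM in 4 libraries, R3-cKO 2 and 3 of both zones, and at least 1.05 FPKM in each of the other 8. Levels differed among these 8, with Ddx3y at 4.96 FPKM in R3-Cntl SFZ library 2 and 21.1 in library 3. Fits without the 4 libraries are thus not matched for these transcripts. In those 4 libraries the absence of Y-linked transcripts and the genotype label cannot be told apart, and genotype differences and the interaction were also fitted without them.

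Chondroitin sulfate is a long, unbranched chain of alternating glucuronic acid and N-acetylgalactosamine, built in the Golgi on serines of proteoglycan core proteins such as aggrecan. Sulfotransferases add sulfate to it from the activated donor PAPS, and the dense negative charge holds the water that lets cartilage bear load. Inherited loss of several of these genes, among them SLC26A2, PAPSS2, CHST3 and CSGALNACT1 in people, causes skeletal dysplasia.

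Supply comes first. Ugdh (gene ID 22235, chr5:65804441-65827185, reverse strand, mm9) encodes UDP-glucose dehydrogenase, which makes the glucuronic acid donor. It read 52.4, 84.4 and 109 FPKM in R3-Cntl SFZ, 38.2, 141 and 52.7 in R3-cKO SFZ, 92.1, 107 and 62.0 in R3-Cntl DZ and 77.7, 137 and 65.5 in R3-cKO DZ. Library 2 was the highest R3-cKO library in both zones, and all 4 groups overlapped. Slc26a2 (gene ID 13521, chr18:61352573-61371266, reverse strand, mm9) encodes the transporter that carries sulfate into chondrocytes. Slc26a2 transcript measured 36.5, 15.4 and 19.7 FPKM in R3-Cntl SFZ, 23.1, 24.9 and 14.4 in R3-cKO SFZ, 81.3, 70.4 and 59.1 in R3-Cntl DZ and 50.4, 40.3 and 43.8 in R3-cKO DZ. Every DZ library stood above every SFZ library. Within DZ the 3 R3-cKO libraries all lay below the 3 R3-Cntl libraries, while the SFZ libraries of both genotypes were mixed.

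Chains are started on a xylose. Xylt1 (gene ID 233781, chr7:124524493-124811265, forward strand, mm9) encodes a xylosyltransferase that places this first sugar on the core protein. It read 47.6, 21.0 and 22.4 FPKM in R3-Cntl SFZ, 42.7, 31.0 and 20.9 in R3-cKO SFZ, 83.1, 72.4 and 74.7 in R3-Cntl DZ and 64.5, 55.2 and 64.8 in R3-cKO DZ. Again no DZ library overlapped an SFZ library, library 1 was the highest of each SFZ group, and the R3-cKO DZ libraries lay wholly below R3-Cntl DZ. Csgalnact1 (gene ID 234356, chr8:70880680-71259045, reverse strand, mm9) encodes the transferase that adds the first N-acetylgalactosamine, the step that commits a chain to chondroitin rather than heparan sulfate. Its levels were 46.7, 24.3 and 36.8 FPKM in R3-Cntl SFZ, 46.1, 36.4 and 36.5 in R3-cKO SFZ, 77.9, 67.6 and 78.3 in R3-Cntl DZ and 66.5, 57.0 and 81.8 in R3-cKO DZ. The zones were apart in every library, and the genotypes overlapped in both zones.

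Chains are lengthened by a pair of partners. Chsy1 (gene ID 269941, chr7:73254401-73318675, forward strand, mm9) encodes a chondroitin synthase and Chpf (gene ID 74241, chr1:75471144-75476046, reverse strand, mm9) the polymerizing factor that works with it. Chsy1 read 33.4, 29.7 and 30.1 FPKM in R3-Cntl SFZ, 35.0, 29.9 and 35.6 in R3-cKO SFZ, 54.7, 52.6 and 52.6 in R3-Cntl DZ and 39.6, 39.4 and 49.0 in R3-cKO DZ. Chsy1 replicates were closest in R3-Cntl DZ (SD 1.16 FPKM) and widest in R3-cKO DZ (SD 5.53). DZ libraries were above all SFZ libraries, and the R3-cKO DZ libraries sat between the SFZ and the R3-Cntl DZ libraries. Chpf gave 31.4, 38.0 and 44.7 FPKM in R3-Cntl SFZ, 40.0, 38.4 and 50.6 in R3-cKO SFZ, 29.7, 31.3 and 34.3 in R3-Cntl DZ and 41.2, 36.1 and 45.3 in R3-cKO DZ. The lowest group was R3-Cntl DZ, all of it below R3-cKO DZ, and the zones overlapped. The proportion of the partners set R3-Cntl DZ apart from the other groups, which was not tested: Chsy1 over Chpf was 0.840 ± 0.200 (SD, n = 3) in R3-Cntl SFZ, 0.786 ± 0.0863 in R3-cKO SFZ, 1.69 ± 0.154 in R3-Cntl DZ and 1.05 ± 0.0736 in R3-cKO DZ. The libraries of R3-Cntl SFZ overlapped both R3-cKO groups.

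Sulfate is activated to PAPS by a pair of synthases. Papss1 (gene ID 23971, chr3:131227732-131306634, forward strand, mm9) is the widely expressed form and Papss2 (gene ID 23972, chr19:32694495-32741677, forward strand, mm9) the form known for its abundance in cartilage. Papss1 read 34.2, 31.1 and 31.99 FPKM in R3-Cntl SFZ, 30.0, 37.4 and 26.5 in R3-cKO SFZ, 48.0, 47.0 and 38.3 in R3-Cntl DZ and 41.0, 39.7 and 41.0 in R3-cKO DZ. Its values lay between 26.5 and 48.0 FPKM, with every DZ library above every SFZ library. Papss2 gave 263, 53.3 and 80.0 FPKM in R3-Cntl SFZ, 163, 129 and 61.1 in R3-cKO SFZ, 745, 385 and 361 in R3-Cntl DZ and 368, 214 and 281 in R3-cKO DZ. Library 1 was the highest of each of its 4 groups, 1 DZ library (R3-cKO 2) lay below 1 SFZ library (R3-Cntl 1), and the DZ genotypes touched at 361 and 368 FPKM. Papss2 over Papss1 was 3.97 ± 3.25 (SD, n = 3) in R3-Cntl SFZ, 3.73 ± 1.58 in R3-cKO SFZ, 11.1 ± 3.91 in R3-Cntl DZ and 7.08 ± 1.80 in R3-cKO DZ. The cartilage form thus exceeded the common one on average in each group, and by more in DZ. The zones overlapped, with R3-Cntl SFZ library 1 at 7.70 and R3-cKO DZ libraries 2 and 3 at 5.40 and 6.85. R3-Cntl SFZ libraries 2 and 3 were at 1.71 and 2.50.

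Sulfate is placed at different carbons of the galactosamine by the last pair. Chst11 (gene ID 58250, chr10:82448243-82658645, forward strand, mm9) encodes a chondroitin 4-O-sulfotransferase and Chst3 (gene ID 53374, chr10:59644280-59682008, reverse strand, mm9) the chondroitin 6-O-sulfotransferase. Chst11 read 61.0, 13.9 and 21.5 FPKM in R3-Cntl SFZ, 42.2, 39.4 and 20.7 in R3-cKO SFZ, 159, 103 and 122 in R3-Cntl DZ and 98.1, 75.5 and 114 in R3-cKO DZ. All DZ libraries were above all SFZ libraries, and the DZ genotypes overlapped. Chst3 was low in each library, at 3.04, 1.70 and 1.86 FPKM in R3-Cntl SFZ, 2.79, 2.05 and 1.12 in R3-cKO SFZ, 0.92, 1.42 and 1.58 in R3-Cntl DZ and 0.84, 1.81 and 1.5 in R3-cKO DZ. Its R3-Cntl DZ libraries were all below R3-Cntl SFZ, and in R3-cKO the zones overlapped. Transcript of the 4-O enzyme exceeded that of the 6-O enzyme in each library, with Chst11 over Chst3 at 13.3 ± 6.12 (SD, n = 3) in R3-Cntl SFZ, 17.6 ± 2.18 in R3-cKO SFZ, 107.7 ± 56.7 in R3-Cntl DZ and 78.3 ± 37.6 in R3-cKO DZ.

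**Figure D1:**
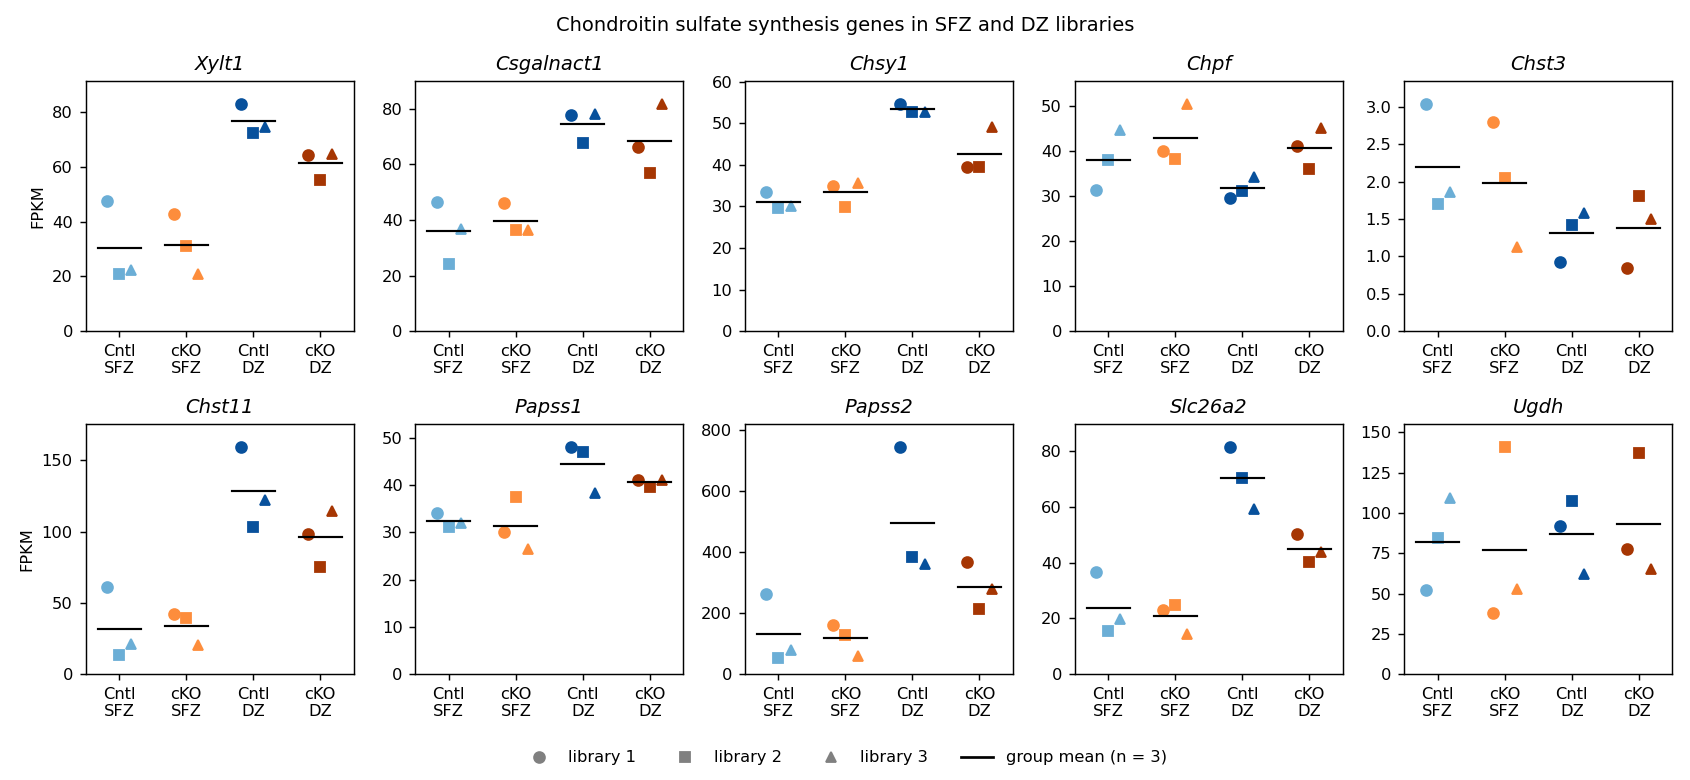
FPKM of each of the 10 genes (y axis, from 0, a scale per panel) in the 12 libraries by group (x axis), with a marker shape for each library number and a bar at the group mean (n = 3). DZ points stand clear of SFZ points for Xylt1, Csgalnact1, Chsy1, Chst11, Papss1 and Slc26a2, while Chst3 stays between 0.84 and 3.04 FPKM.

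The promoters of Papss2 and Chst11, which have the largest zone differences of the 10, are printed here beside that of Chst3, which was no higher in DZ, to show which letters of the Runx and Sox families lie near each start. RefSeq promoters (GRCm38.p6, 250 bases before to 50 after each start) were available for 7 of the 10 genes and gave 9 windows, and none was listed for Xylt1, Csgalnact1 or Slc26a2. Both strands were searched for the Runx letters TGTGGT and TGCGGT and for the Sox letters ACAAAG and ACAATG. The first Papss2 start held the Runx letters TGTGGT, in capitals below, with their first base at position -183 from the start, and it was 1 of 9 windows to hold either Runx word. The second Papss2 start (chr19:32619755-32620054, 44.3% G and C) held no Runx or Sox word and is not printed. Over all 32851 RefSeq promoters, 22.4% held a Runx word (16.8% TGTGGT and 6.45% TGCGGT). The Chst3 window held ACAAAG at position -172, also in capitals, again 1 of 9, against 28.6% of all promoters with a Sox word (18.7% ACAAAG and 12.6% ACAATG). The Chst11 window held none of the 4 words, which says only that those letters are not in its 300 bases. Papss2 lies at chr19:32595465-32595764 on the + strand (66.3% G and C), Chst11 at chr10:82985247-82985546 on the + strand (71.0%) and Chst3 at chr10:60219211-60219510 on the - strand (70.0%).
Papss2: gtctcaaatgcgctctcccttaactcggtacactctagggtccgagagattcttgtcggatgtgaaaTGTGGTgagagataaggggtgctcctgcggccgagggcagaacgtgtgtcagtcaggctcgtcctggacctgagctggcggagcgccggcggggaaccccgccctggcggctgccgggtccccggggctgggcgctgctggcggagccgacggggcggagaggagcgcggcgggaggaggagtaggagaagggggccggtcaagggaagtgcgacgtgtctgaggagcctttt
Chst11: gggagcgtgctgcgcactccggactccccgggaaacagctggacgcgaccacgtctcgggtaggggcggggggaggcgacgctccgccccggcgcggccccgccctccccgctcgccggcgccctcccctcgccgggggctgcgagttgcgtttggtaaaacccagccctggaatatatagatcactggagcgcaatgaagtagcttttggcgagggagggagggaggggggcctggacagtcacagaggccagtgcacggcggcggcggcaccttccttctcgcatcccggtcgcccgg
Chst3: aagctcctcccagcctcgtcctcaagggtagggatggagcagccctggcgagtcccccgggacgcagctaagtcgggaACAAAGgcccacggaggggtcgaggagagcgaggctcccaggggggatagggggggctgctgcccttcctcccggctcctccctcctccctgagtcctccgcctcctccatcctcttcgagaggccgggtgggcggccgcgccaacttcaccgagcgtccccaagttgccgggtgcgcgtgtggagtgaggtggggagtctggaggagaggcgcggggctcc

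FPKM is a level per transcript length, so the 10 genes can be ranked within a group. In R3-Cntl DZ the order was Papss2 (497 ± 215 FPKM, SD, n = 3), Chst11 (128 ± 28.6), Ugdh (87.1 ± 23.0), Xylt1 (76.7 ± 5.60), Csgalnact1 (74.6 ± 6.06), Slc26a2 (70.2 ± 11.1), Chsy1 (53.3 ± 1.16), Papss1 (44.4 ± 5.37), Chpf (31.8 ± 2.35) and Chst3 (1.31 ± 0.344). Ugdh, Xylt1, Csgalnact1 and Slc26a2 did not differ from their neighbours among these 4 by more than the larger SD, and the other steps of the order were larger than it. In R3-cKO DZ the order ran Papss2 (287.5 ± 76.9), Chst11 (96.0 ± 19.6), Ugdh (93.5 ± 38.5), Csgalnact1 (68.4 ± 12.5), Xylt1 (61.5 ± 5.48), Slc26a2 (44.8 ± 5.13), Chsy1 (42.7 ± 5.53), Chpf (40.9 ± 4.63), Papss1 (40.5 ± 0.765) and Chst3 (1.38 ± 0.495). There the steps beyond the larger SD were those after Papss2, after Xylt1 and before Chst3.

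SFZ libraries were flatter. The R3-Cntl SFZ order was Papss2 (132 ± 114 FPKM), Ugdh (82.1 ± 28.6), Chpf (38.0 ± 6.61), Csgalnact1 (35.9 ± 11.2), Papss1 (32.4 ± 1.56), Chst11 (32.1 ± 25.3), Chsy1 (31.1 ± 2.02), Xylt1 (30.3 ± 15.0), Slc26a2 (23.9 ± 11.2) and Chst3 (2.20 ± 0.732). Papss2 and Ugdh could not be separated beyond the larger SD, nor could any neighbours from Chpf down to Slc26a2. R3-cKO SFZ ran Papss2 (118 ± 51.9), Ugdh (77.3 ± 55.6), Chpf (43.0 ± 6.63), Csgalnact1 (39.7 ± 5.61), Chst11 (34.1 ± 11.7), Chsy1 (33.5 ± 3.12), Xylt1 (31.5 ± 10.9), Papss1 (31.3 ± 5.58), Slc26a2 (20.8 ± 5.60) and Chst3 (1.99 ± 0.837). Neighbours from Papss2 down to Papss1 lay within the larger SD of each other, and the steps to Slc26a2 and to Chst3 were beyond it. Ranked by group mean among all 17536 genes, Papss2 was number 123 and Chst11 number 459 in R3-Cntl DZ, against 458 and 2291 in R3-Cntl SFZ, and Chst3 was number 10630 and 10358.

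The comparison of zones asks whether SFZ and DZ cells differ in these genes whatever the genotype label. Across both genotypes, 7 of the 10 genes were higher in DZ than in SFZ at an adjusted p under 0.05 (limma, Benjamini-Hochberg over all 11765 genes tested), where 4.3% of all genes were called higher and 18.9% lower, and 0 of the 10 were lower. For 6 of the 10, every DZ library exceeded every SFZ library, as it did for 1.64% of all genes. Because the 10 were chosen with earlier results of these data known, these shares do not test them as a set. All 10 passed the filter on low values (at least 1 FPKM in at least 3 libraries of a fit). The higher genes span supply of sulfate, its activation, chain start, chain growth and 4-O-sulfation. Fewer cells of a type and less RNA per cell cannot be told apart in these bulk samples.

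Chst11, the 4-O-sulfotransferase, differed most, by 1.86 log2 units (SE 0.328, 95% confidence interval 1.14 to 2.58, 3.63-fold, adjusted p = 0.00382). Papss2, the cartilage PAPS synthase, followed at 1.76 (SE 0.400, interval 0.88 to 2.64, 3.39-fold, adjusted p = 0.0109), with 1 DZ library below 1 SFZ library. Slc26a2, the sulfate transporter, was 1.35 higher (SE 0.210, interval 0.89 to 1.81, 2.55-fold, adjusted p = 0.00228), and the xylosyltransferase gene Xylt1 1.2 higher (SE 0.214, interval 0.73 to 1.67, 2.30-fold, adjusted p = 0.00404). Smaller differences were those of Csgalnact1 (0.92, SE 0.154, 1.90-fold, adjusted p = 0.00293), Chsy1 (0.55, SE 0.0975, 1.46-fold, adjusted p = 0.00393) and Papss1 (0.41, SE 0.0886, 1.33-fold, adjusted p = 0.00927). The other 3 did not pass: Ugdh at 0.27 (interval -0.44 to 0.97, adjusted p = 0.576), Chpf at -0.15 (interval -0.39 to 0.08, adjusted p = 0.312) and Chst3 at -0.38 (interval -0.76 to -0.01, adjusted p = 0.128).

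The median difference of the 10 genes was 0.74 and that of all genes -0.14, so most genes read slightly lower in DZ under the deposited scaling. Quantile normalization moved the all-gene median to 0.03 and median-of-ratios size factors to 0.003, and under both the 7 genes remained higher, with medians over the 10 of 0.84 and 0.90. Calls over all genes were then 1237 higher and 915 lower of 11765 under quantile normalization, and 1050 higher and 1080 lower of 11740 under median-of-ratios factors. Chpf turned from below to just above 0 (0.01) under median-of-ratios factors. Without the 4 libraries that lack Y-linked transcripts, 1 R3-cKO library was left in each zone and assumed to vary like the others. In that fit 6 of the 10 passed, where 229 of 11589 genes were called higher and 1047 lower. Papss2 missed the threshold there at 1.91 (adjusted p = 0.0541, range over 21 alternatives 0.00212 to 0.0541). Chst3 passed as lower only without R3-cKO SFZ library 3 (-0.49, adjusted p = 0.04996, range 0.04996 to 0.642). Over the alternatives its estimate ran from -0.61 to -0.13, and that of Ugdh from 0.08 to 0.49.

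**Figure D2:**
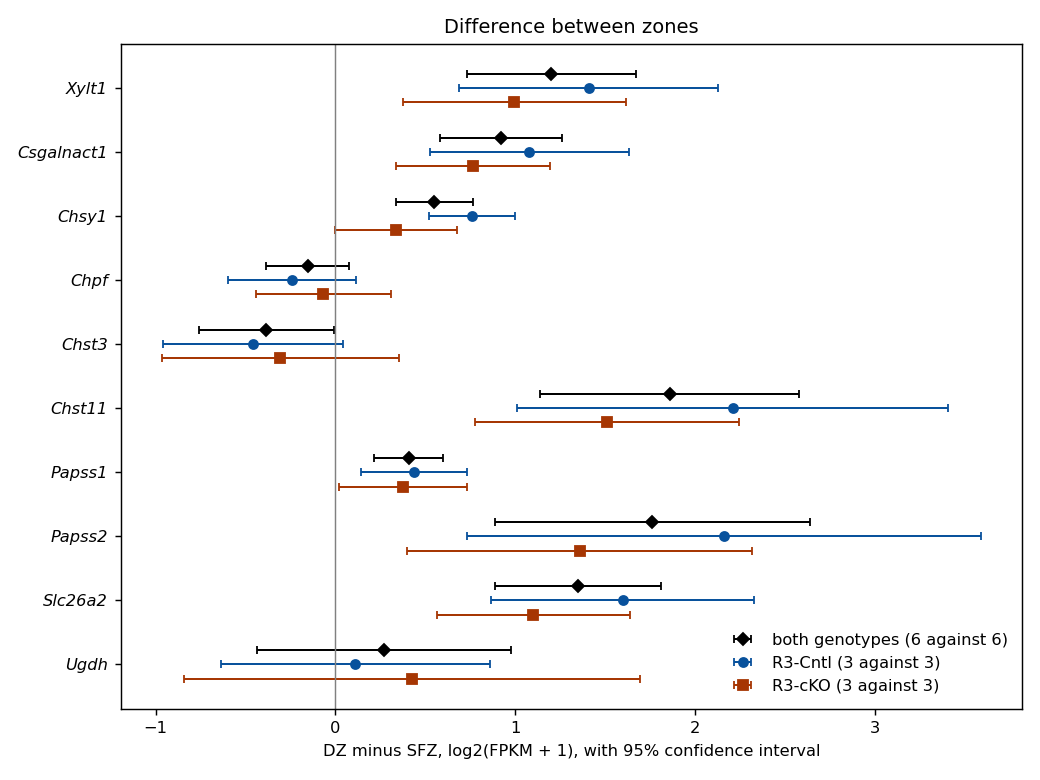
DZ minus SFZ difference in log2(FPKM + 1) (x axis) for each of the 10 genes (y axis), over both genotypes (diamonds, 6 against 6 libraries), in R3-Cntl (circles) and in R3-cKO (squares, each 3 against 3), with 95% confidence intervals. The estimates over both genotypes reach from -0.38 for Chst3 to 1.86 for Chst11, and Chpf, which lies at -0.15, moves to 0.01 under median-of-ratios scaling.

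The same question can be put within each genotype, with libraries that the pooled comparison shares. In R3-Cntl alone, Chsy1 was the 1 gene of the 10 to pass as higher (0.76, SE 0.1004, 1.69-fold, adjusted p = 0.0480), where 0.15% of the 11336 genes tested were called higher and 1.09% lower. The others with no overlap between zones were Chst11 at 2.21 (adjusted p = 0.0698), Papss2 at 2.16 (0.0967), Slc26a2 at 1.6 (0.0590), Xylt1 at 1.41 (0.0653), Csgalnact1 at 1.08 (0.0654) and Papss1 at 0.44 (0.0993). With Chsy1 these make 7 of 10 with every DZ library above every SFZ library, as for 5.96% of all genes tested. Chst3 read -0.46 (adjusted p = 0.206) with every DZ library below the SFZ libraries, while Ugdh read 0.11 and Chpf -0.24. With 3 libraries in each group, the smallest p that an exact permutation test allows is 0.1.

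These calls depended on single libraries and on settings. Without R3-Cntl SFZ library 1, the SFZ library with the most Papss2, Chst11 and Xylt1 transcript, 6 of the 10 passed (1.84% of 11081 genes were called higher): Papss2 at 2.83, Chst11 at 2.80, Slc26a2 at 1.94, Xylt1 at 1.77, Csgalnact1 at 1.29 and Chsy1 at 0.81. Adjusted p for Chsy1 became 0.228 or 0.117 without SFZ library 2 or 3, and 0.152, 0.108 or 0.0684 without DZ library 1, 2 or 3. With all libraries it missed the threshold as well without a filter (0.0639), where genes had to average 10 FPKM (0.0657), with a pseudocount of 5 (0.0514) and under quantile normalization (0.0648). With all 12 libraries in 1 model, where 132 of 11765 genes were called higher, Slc26a2 (0.0178), Csgalnact1 (0.0230), Chst11 (0.0245), Xylt1 (0.0273) and Papss2 (0.0483) passed beside Chsy1. The library number as a block, although only number 1 ran clearly together between the zones of R3-Cntl, gave the same 6 genes, with 150 of 11336 called higher.

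In R3-cKO alone 0 of the 10 passed, where limma called 0% of the 11336 genes higher and 0.0176% lower at an adjusted p under 0.05, and 6 of the 10 had an unadjusted p under 0.05, as had 1602 of the 11336 genes. Values were Chst11 at 1.51, Papss2 at 1.36, Slc26a2 at 1.1, Xylt1 at 0.99, Csgalnact1 at 0.77, Papss1 at 0.38 and Chsy1 at 0.34 (adjusted p from 0.138 to 0.354), and in each of these 7 every DZ library exceeded every SFZ library, as for 4.24% of all genes. Ugdh read 0.43, Chpf -0.07 (0.02 and 0.06 under quantile and median-of-ratios scaling) and Chst3 -0.31. With the library number as a block 0.591% of genes were called higher, and the 7 had adjusted p from 0.0537 (Slc26a2) to 0.132 (Papss1), all 7 with an unadjusted p under 0.05, as had 3396 of the 11336 genes.

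Estimates of the zone difference were nearer to 0 in R3-cKO than in R3-Cntl for Chst11, Papss2, Slc26a2, Xylt1, Csgalnact1, Chsy1 and Papss1, and the interaction of zone and genotype tests that contrast directly. By limma 0 of the 10 passed (0% of 11765 genes called higher and 0% lower), and 1 of the 10 had an unadjusted p under 0.05, as had 0.841% of all genes. That gene was Chsy1, with an interaction of -0.42 (SE 0.158, interval -0.77 to -0.07, adjusted p = 0.999). The intervals of the rest were wide: Papss2 -0.80 (-2.57 to 0.97), Chst11 -0.70 (-2.14 to 0.75), Slc26a2 -0.50 (-1.41 to 0.42) and Xylt1 -0.41 (-1.37 to 0.54). Without the 4 libraries that lack Y-linked transcripts the interaction read -1.01 for Chst11, -0.995 for Papss2, 0.89 for Ugdh, -0.82 for Xylt1, -0.59 for Chsy1, -0.58 for Chst3, -0.56 for Csgalnact1, -0.50 for Slc26a2, 0.28 for Chpf and -0.001 for Papss1. By limma 0 of the 10 passed in that fit, and Chsy1 alone had an unadjusted p under 0.05, as had 123 of 11589 genes. A difference between genotypes in how far the zones are apart was thus not shown for any of the 10.

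Cell type markers moved with zone as well, where 4.3% of all genes were called higher in DZ and 18.9% lower. Chondrocyte markers (13 of 13 higher in DZ, median 1.24, most abundant Col2a1) summed to 16171, 5429 and 10128 FPKM in R3-Cntl SFZ, 13939, 8244 and 6280.3 in R3-cKO SFZ, 37246, 23680 and 30671 in R3-Cntl DZ and 24894, 16697 and 29971 in R3-cKO DZ. Fibroblast and tendon markers (10 of 10 lower in DZ, median -3.35, most abundant Col1a1 in SFZ and Col1a1 or Col1a2 in DZ) summed to 4043, 7928 and 4486 FPKM in R3-Cntl SFZ, 4204, 3914 and 11065 in R3-cKO SFZ, 119, 610.5 and 2157 in R3-Cntl DZ and 224, 595 and 1504 in R3-cKO DZ. R3-Cntl SFZ library 2 and R3-cKO SFZ library 3, highest of their groups for these fibroblast transcripts, were the lowest of their groups for Slc26a2, Chst11 and Papss2. Macrophage markers (8 of 9 tested lower, median -1.58, most abundant Lyz2) summed to 192, 159 and 7.35 FPKM in R3-Cntl SFZ, 157, 16.4 and 72.4 in R3-cKO SFZ and between 4.93 and 27.6 in DZ. Under quantile and median-of-ratios scaling 12 and 13 of the 13 chondrocyte markers passed, 9 and 9 of the 10 fibroblast markers and 3 and 3 of the 9 macrophage markers. Without the 4 libraries that lack Y-linked transcripts these counts were 4, 8 and 1, where 229 of 11589 genes were called higher and 1047 lower. The part of these cell types in the zone result was not tested.

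Superficial zone markers passed as lower in DZ for 3 of 9 tested (Thbs4 -5.36, Abi3bp -3.08 and Vcam1 -1.96). The counts of this paragraph stand beside 18.9% of all genes called lower in DZ and 4.3% called higher. Gdf5 alone of the 9 was above 0 (0.89, adjusted p = 0.0596), and it passed as higher under quantile (1.13, adjusted p = 0.0285) and median-of-ratios scaling (1.02, adjusted p = 0.0389), where the same 3 stayed lower. The sums of these markers were 345 to 1022 FPKM in the SFZ libraries and 70.4 to 216 in DZ. Deep zone markers passed as higher for 4 of 10, with sums from 541 FPKM in SFZ to 4470.4 in DZ. Of these 10 markers 2 were below 0 (lowest -0.70), and 1 was under each of the other scalings. In R3-cKO the deep zone marker Alpl ran from 8.43 to 11.9 FPKM in DZ and from 15.97 to 32.02 in SFZ. Superficial markers kept the zones apart in every library, while the deep zone sums of R3-Cntl SFZ library 1 (1072) and R3-cKO DZ library 2 (1058) crossed. Of osteoblast markers 1 of 4 tested passed, as lower (Bglap -2.26), while the other 3 were above 0 (median of the 4 0.33), and their sums of 242 to 999.7 FPKM were mostly Spp1. Endothelial, muscle and keratinocyte markers had 1 gene tested each, with 0 calls by limma and 0 at an unadjusted p under 0.05, and erythroid markers had none past the filter, with sums of 0.02 to 0.18 FPKM. Muscle transcripts, chiefly Acta1, summed to 69.2 FPKM in R3-Cntl SFZ library 2 and to between 0.82 and 12.9 in the other libraries. Chondrocyte markers listed at 0 numbered 0 in every library, macrophage markers up to 5 of 10 (R3-cKO DZ library 3), fibroblast and tendon markers up to 1 of 10 and muscle markers up to 5 of 7 (R3-cKO DZ library 1).

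The wider chondroitin and dermatan sulfate pathway had calls in both directions. Of 31 further genes 29 were tested, and 8 were higher and 5 lower in DZ, with a median of 0.08, where 4.3% of all genes were called higher and 18.9% lower. Among linkage and other chain genes 4 of 10 passed, each as higher (median 0.03): Chsy3 (0.85), a second chondroitin synthase, Fam20b (0.75), the xylose kinase, and the linkage transferases B4galt7 (0.52) and B3gat3 (0.35). Of other donor supply genes 4 of 12 passed, each as higher (median 0.29), and all 12 differences were above 0, under the other scalings too: the hexosamine enzymes Gfpt2 (1.3) and Gfpt1 (0.77), the nucleotide sugar transporter Slc35d1 (1.14) and the PAPS transporter Slc35b2 (0.19). Of the remaining sulfation genes 5 of 7 passed, each as lower (median -0.47): Chst7 (-0.90), a 6-O-sulfotransferase like Chst3, the uronyl 2-O-sulfotransferase Ust (-0.86), the dermatan epimerase Dsel (-0.57), the dermatan 4-O-sulfotransferase Chst14 (-0.47) and Chst15 (-0.44). Dse (-0.13) and Chst12 (0.04) did not pass. Under both other scalings Ust and Dsel stayed lower and the other 3 missed the threshold, so 2 sulfation genes passed there, while 4 linkage genes and 7 and 8 supply genes did.

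Related pathways serve as a comparison, to be read beside the 18.9% of all genes called lower in DZ. Heparan sulfate synthesis, which shares the linkage sugars and the PAPS pool, had 3 of 13 tested genes past the threshold, each lower in DZ (median -0.26): Hs3st3a1 (-0.82), Hs3st3b1 (-0.53) and Ndst2 (-0.40). Keratan sulfate synthesis had 3 of 5, each lower (median -0.70): Chst2 (-0.91), B4galt1 (-0.79) and B3gnt2 (-0.32). Chain breakdown and desulfation had 3 of 11, each lower (median -0.37), the lysosomal enzymes Arsb (-0.52), Galns (-0.44) and Gusb (-0.35). Under quantile and median-of-ratios scaling the lower counts became 1 and 2 for heparan sulfate and 1 and 1 for keratan sulfate, and the 3 breakdown calls were lost. Whether these lists differ from the 10 genes was not tested. Without the 4 libraries that lack Y-linked transcripts, 229 of 11589 genes were called higher and 1047 lower. In that fit 3 of the 29 wider pathway genes were higher and 2 lower, and of 10 deep zone markers 2 were higher. Called lower there were 2 heparan sulfate genes, 0 keratan sulfate genes and 0 breakdown genes.

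Transcripts of the proteins that carry the chains had calls in both directions, where 4.3% of all genes were called higher and 18.9% lower. Of 8 carriers tested, 2 were higher in DZ, Epyc (3.05), which encodes epiphycan, and Acan (2.11, adjusted p = 0.0061), the aggrecan core protein that bears most chondroitin sulfate of cartilage, and 2 were lower, Vcan (-1.91), versican, and Bgn (-0.61), biglycan, whose call was lost under both other scalings. Quantile normalization gave 3 higher and 1 lower of the 8, with Cspg4 added, and median-of-ratios factors 5 and 1, with Col9a2 and Dcn as well. Acan read 1499 ± 487 FPKM (SD, n = 3) in R3-Cntl DZ and 1129 ± 351 in R3-cKO DZ, against 347 ± 286 in R3-Cntl SFZ and 348 ± 185 in R3-cKO SFZ. Bgn was the most abundant carrier in all 6 SFZ libraries and Acan in 5 of the 6 DZ libraries.

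**Figure D3:**
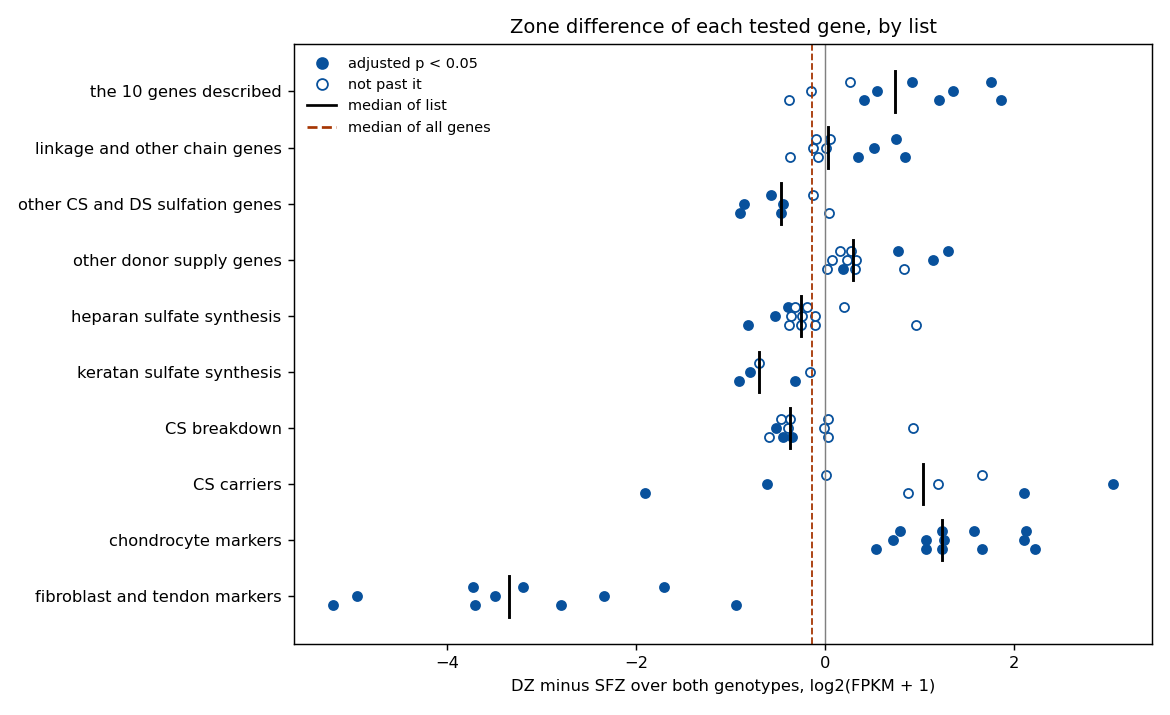
DZ minus SFZ difference over both genotypes in log2(FPKM + 1) (x axis) of each tested gene in 10 lists (y axis), filled at an adjusted p under 0.05, with a bar at each list's median and a dashed line at the all-gene median of -0.14. The 10 genes have a median of 0.74, further sulfation genes -0.47 and fibroblast and tendon markers -3.35, and under both other scalings the lower calls shrink to 2 for sulfation and 1 for keratan sulfate and are lost for breakdown.

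In SFZ the genotype labels were not separated by any of the 10 genes. By limma 0 of 10 passed, where 0% of the 11537 genes tested were called higher and 0% lower. At an unadjusted p under 0.05 stood 0 of 10, as did 0.295% of all genes. Nor did any of the 10 show groups without overlap, against 2.4% of all genes. The share of 0.295% depended on 1 library. With R3-cKO SFZ library 2 left out, 1204 of 11436 genes had an unadjusted p under 0.05 by limma. With all 6 libraries kept, differences ran from -0.25 for Ugdh to 0.29 for Chst11, and the interval of each included 0. Their median was 0.08 (all genes -0.01). Without the 2 R3-cKO SFZ libraries that lack Y-linked transcripts, the 1 left being assumed to vary like the R3-Cntl ones, Ugdh read -1.02, Chst11 0.65, Papss2 0.64, Xylt1 0.58, Csgalnact1 0.40, Chst3 0.27, Chsy1 0.17, Papss1 -0.11, Chpf 0.08 and Slc26a2 0.04, and 0 of the 10 passed by limma or had an unadjusted p under 0.05. With all 6 libraries, intervals were wide for the genes with the most spread, from -1.53 to 1.65 for Papss2 and from -1.07 to 1.65 for Chst11, and narrow for Chsy1 (0.10, interval -0.17 to 0.38).

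In DZ, 7 of the 10 genes read lower in the libraries labelled R3-cKO than in R3-Cntl, with a median of -0.23 against 0.05 for all 11091 genes tested, and none of the 10 differences passed the adjusted test. By limma 0% of all genes were called higher and 0% lower. At an unadjusted p under 0.05 stood 4 of the 10 genes, as did 3.64% of all genes, and the same 4 had groups that did not overlap, as did 8.03% of all genes. Runx3 transcript was not lower in these R3-cKO libraries, so the direction is one between labels.

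The sulfate transporter had the lowest p of these 4. Slc26a2 averaged 44.8 ± 5.13 FPKM (SD, n = 3) in R3-cKO DZ and 70.2 ± 11.1 in R3-Cntl DZ. Its log2 difference was -0.63 (SE 0.159, interval -1.01 to -0.25, adjusted p = 0.999), which put it at number 49 of 11091 genes in order of p. Next were Chpf at 0.35 (interval 0.04 to 0.66), Xylt1 at -0.32 (-0.61 to -0.02) and Chsy1 at -0.32 (-0.62 to -0.02). Papss2 at -0.74 (SE 0.333, interval -1.54 to 0.06) had the largest estimate of the 10 with all libraries, and the loosest spread. Its R3-Cntl DZ values were 745, 385 and 361 FPKM, so library 1 weighs on that estimate. Chst11 read -0.41 (SE 0.220, interval -0.94 to 0.12). Csgalnact1 (-0.13), Papss1 (-0.12), Ugdh (0.06) and Chst3 (0.04, and -0.02 under quantile scaling) were closest to 0.

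Libraries of the same number lay together in DZ, and the values can be read within each number. R3-cKO over R3-Cntl was 0.619, 0.572 and 0.742 for Slc26a2, 0.494, 0.556 and 0.777 for Papss2, 0.616, 0.732 and 0.937 for Chst11, 0.776, 0.762 and 0.868 for Xylt1, 0.724, 0.748 and 0.932 for Chsy1 and 1.39, 1.15 and 1.32 for Chpf, for numbers 1, 2 and 3. Each of these 6 genes kept 1 direction in its 3 ratios, as did 40.0% of the 11091 genes tested (1485 below 1 and 2955 above). The other 4 did not: Csgalnact1 read 0.853, 0.844 and 1.05, Papss1 0.853, 0.844 and 1.07, Chst3 0.913, 1.27 and 0.949 and Ugdh 0.844, 1.28 and 1.06. With the number as a block, 6 of the 10 had an unadjusted p under 0.05, where 16.5% of all genes had one: Slc26a2 (interval -0.87 to -0.39), Papss2 (-1.12 to -0.36), Chpf (0.14 to 0.56), Xylt1 (-0.51 to -0.13), Chsy1 (-0.56 to -0.08) and Chst11 (-0.74 to -0.09). By limma 0 of the 10 passed in that fit either, with the lowest adjusted p at 0.147 for Slc26a2.

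**Figure D4:**
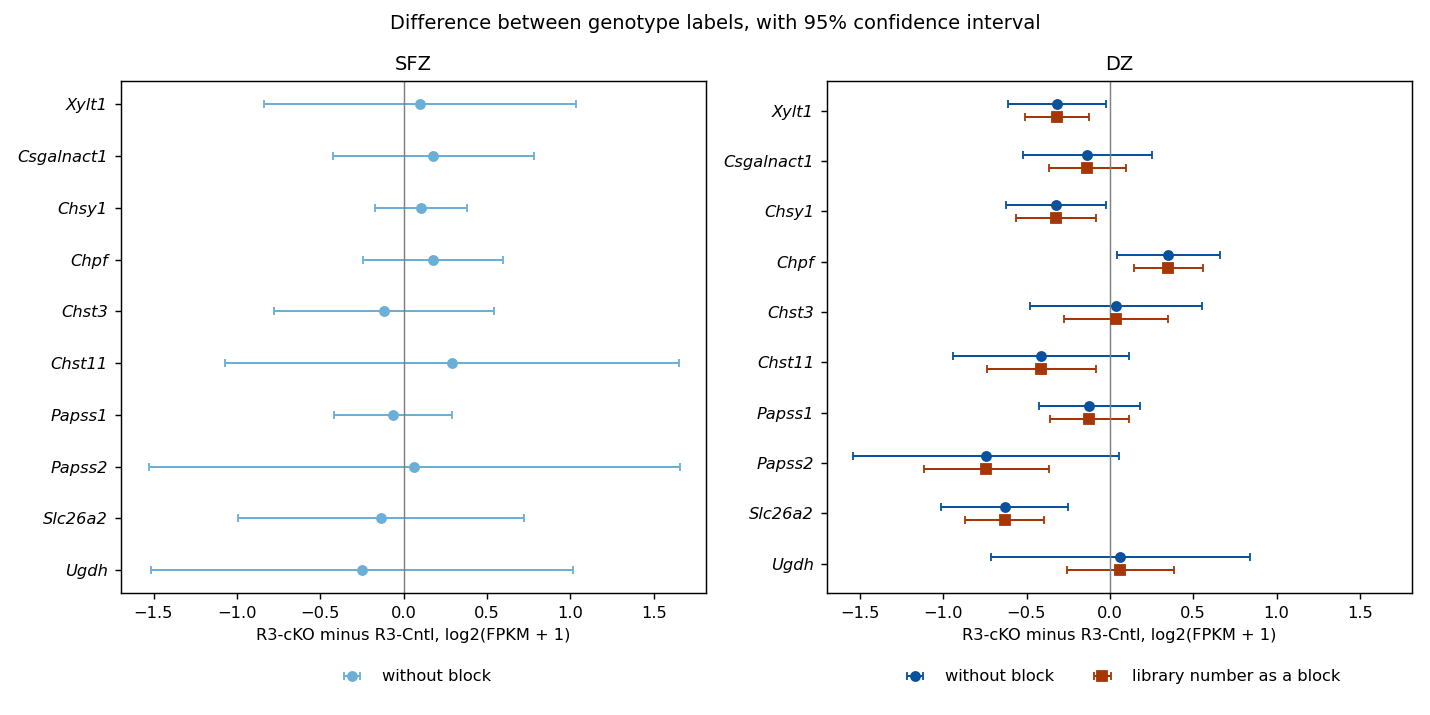
R3-cKO minus R3-Cntl difference in log2(FPKM + 1) (x axis) of each of the 10 genes (y axis) in SFZ and in DZ (3 against 3 libraries each), with 95% confidence intervals, and in DZ also with the library number as a block (squares). DZ estimates reach from -0.74 for Papss2 to 0.35 for Chpf, SFZ estimates from -0.25 to 0.29, and Chst3 in DZ lies at 0.04 and at -0.02 under quantile scaling.

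**Figure D5:**
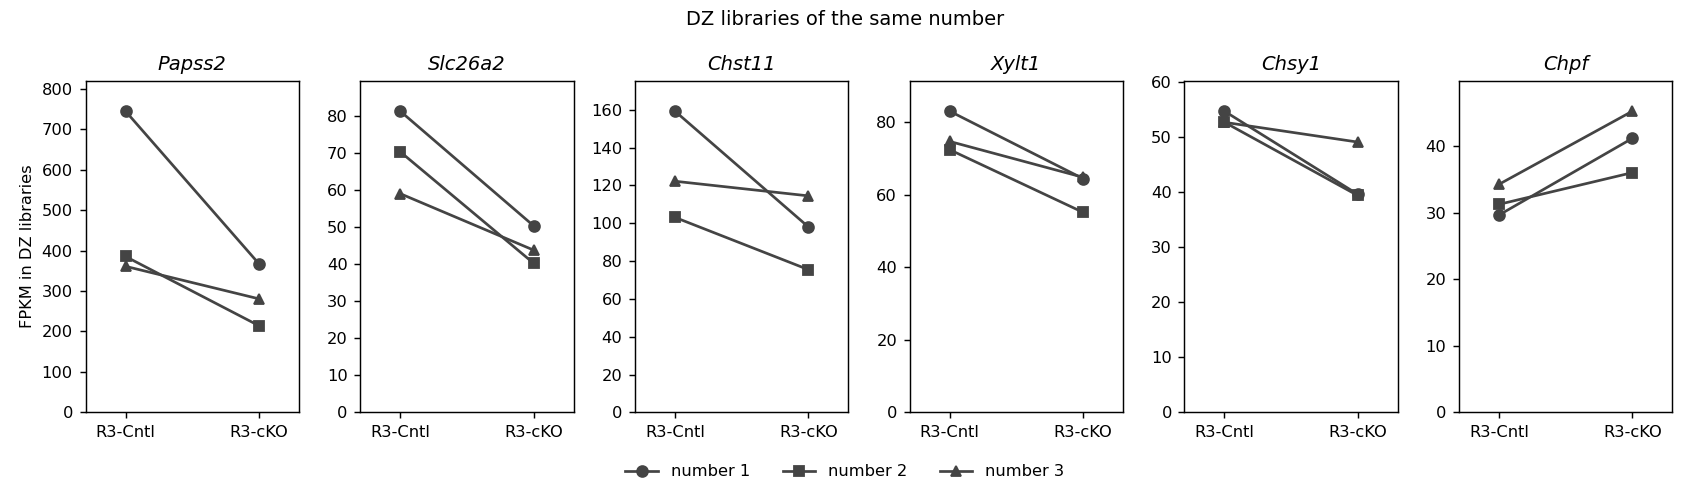
FPKM (y axis, from 0, a scale per panel) of 6 genes in DZ by genotype label (x axis, 3 libraries each), with lines joining libraries of the same number. Papss2 goes from 745 to 368, from 385 to 214 and from 361 to 281 FPKM, and Chpf alone of the 6 goes up in each number.

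The DZ pair of number 1 carries Y-linked transcripts in both libraries, and there Slc26a2 read 81.3 against 50.4 FPKM and Papss2 745 against 368. With the R3-cKO libraries 2 and 3 left out, the 1 remaining R3-cKO library being assumed to vary like the R3-Cntl ones, differences were Slc26a2 -0.46, Chsy1 -0.42, Chst11 -0.36, Papss2 -0.35, Xylt1 -0.25 and Chpf 0.37, and 0 of the 10 passed by limma. Ugdh then read -0.13, against 0.06 with all libraries, and Chst3 gave no value. Of the 4 genes with an unadjusted p under 0.05 none kept it in that smaller fit, and the Papss2 estimate was nearer to 0. The fit takes no account of the number, and within number 1 the ratio for Papss2 was 0.494.

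Cell markers were compared between the DZ labels too, and 0 of them passed. Their counts at an unadjusted p under 0.05 stand beside 3.64% of all 11091 genes. The lists are not separate: Matn1 and Matn3 are chondrocyte and deep zone markers, and Ibsp is a deep zone and osteoblast marker. Chondrocyte markers read below 0 for 11 of 13 (median -0.44, 0 passing and 2 with an unadjusted p under 0.05 by limma). Deep zone markers did so for 10 of 10 (median -0.67, 0 passing and 2 at an unadjusted p under 0.05). With the DZ libraries that lack Y-linked transcripts left out, these were 9 of 13 and 6 of 10 (medians -0.34 and -0.13). Osteoblast markers read below 0 for 3 of 4 (median -0.99, 2 at an unadjusted p under 0.05 by limma) and macrophage markers for 3 of 3 (median -0.76, 1 at an unadjusted p under 0.05). Superficial zone markers were above 0 for 6 of 7 (median 0.13) and fibroblast and tendon markers for 5 of 7 (median 0.12), with 0 at an unadjusted p under 0.05 in both. Of the 11091 genes tested 62.3% were above 0. These counts were 5 and 4 of 7 under quantile scaling and 6 and 4 of 7 under median-of-ratios scaling. Without the DZ libraries that lack Y-linked transcripts 1 of 5 fibroblast and tendon markers and 4 of 7 superficial zone markers were above 0 (medians -1.15 and 0.27). That fit sets R3-cKO library 1 against R3-Cntl libraries 1, 2 and 3 and takes no account of the number. Within number 1 the fibroblast and tendon sum was 119 FPKM in R3-Cntl DZ and 224 in R3-cKO DZ, against 610.5 and 2157 in R3-Cntl DZ libraries 2 and 3, so the values below 0 are not a reversal within the pair. Deep zone markers summed to 4470.4, 2124 and 4418 FPKM in R3-Cntl DZ and 2039, 1058 and 4094 in R3-cKO DZ, with Matn1 most abundant in 5 of the 6 and Ucma in R3-cKO library 2, and 0 of the 10 markers at 0 in any. The part of these cells in the DZ values was not tested.

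Around the 10, the genes of the wider pathway gave no common direction between DZ labels, with 15 of 29 above 0 and 14 below as deposited (median 0.02) and 10 and 12 above 0 under quantile and median-of-ratios scaling. By limma 0 passed in any of these lists or the related ones. Chst7, Gfpt1 and Sulf1 had an unadjusted p under 0.05, as had 3.64% of all 11091 genes. The lowest p values of each list were those of Chsy3 (-0.33) and Fam20b (-0.17) for linkage and chain genes, Chst7 (0.66) and Chst14 (0.41) for sulfation, Gfpt1 (-0.34) and Gfpt2 (-0.58) for donor supply, Glce (-0.48) and Hs6st2 (1.02) for heparan sulfate, B4galt1 (0.25) and B4galt4 (-0.06) for keratan sulfate, and Sulf1 (1.04) and Ids (0.52) for breakdown and desulfation. Sulf1 encodes an extracellular 6-O-endosulfatase of heparan sulfate and Ids a lysosomal sulfatase of dermatan and heparan sulfate. Among carriers they were Col9a2 (-0.88) and Bgn (0.31). The study reports lower Acan in R3-cKO DZ cells by qRT-PCR, and its return to control levels when Runx3 was overexpressed. Here Acan averaged 1129 FPKM in R3-cKO DZ and 1499 in R3-Cntl DZ, a gap smaller than the SD of 487 in R3-Cntl DZ. An exact permutation test of these groups gave p = 0.5. R3-cKO over R3-Cntl was 0.693, 0.664 and 0.919 for numbers 1, 2 and 3.

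The 10 genes did not vary as 1 unit across the 12 libraries. Pearson's r between each gene's log2 values and the mean of the other 9, each standardized, was 0.969 for Chst11, 0.952 for Slc26a2, 0.947 for Xylt1, 0.924 for Csgalnact1, 0.921 for Papss2, 0.877 for Papss1 and 0.801 for Chsy1, and it was 0.0292 for Ugdh, -0.446 for Chst3 and -0.646 for Chpf. These 3 are the genes that did not pass by zone. Pairs of the 7 ran from 0.735 (Chsy1 and Papss1) and 0.760 (Csgalnact1 and Papss1) to 0.973 (Chst11 and Papss2) and 0.984 (Xylt1 and Chst11). Each of these r is over 12 libraries that fall into 2 zones, and the values are descriptions. With each zone's mean taken away, r with the other 9 was 0.875 for Chst11, 0.801 for Slc26a2, 0.788 for Papss2, 0.782 for Xylt1, 0.662 for Csgalnact1, 0.545 for Papss1, 0.303 for Chst3, 0.195 for Chsy1, -0.371 for Ugdh and -0.726 for Chpf.

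Outside the 10, the genes whose values ran closest to the mean of all 10 over the 12 libraries were Plagl1 (r = 0.985), Usp29 (0.981), Cdk17 (0.979), Fam20b (0.978), Epyc (0.973), Stk26 (0.969), Zfp385b (0.969), Rps6ka1 (0.968), Ak4 (0.968) and Acan (0.967), of 11765 genes. Fam20b, the kinase that acts on the linkage xylose, and the chondroitin sulfate carriers Epyc and Acan are thus among the 10 most alike. That mean holds each of the 10, so their own r with it is not set beside these. With zone means taken away the highest of these were Cdk17 (0.949) and Plagl1 (0.924).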

How the data were processed

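Values were deposited by the authors as FPKM, a unit inferred from their totals, their decimals and smallest values that fall with transcript length, with TMM scaling between libraries applied before deposit; the submitters' notes name Bowtie 0.12.2 and mm9. Methods that name quantile normalization and log2 counts do not describe these linear values. No counts were analysed here, so depth and the precision it gives are unknown. The 12 libraries fall into 4 groups by zone and genotype, with 3 each.

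A gene was tested where 3 or more libraries of a fit reached 1 FPKM, on log2(FPKM + 1) by limma 3.58.1 with a mean-variance trend (R 4.3.3), with Benjamini-Hochberg adjustment over all genes tested and a threshold of 0.05. Unadjusted p-values are limma's and 2-sided. Fits compared genotypes within each zone, zones within each genotype and over both, and tested their interaction. The procedure was tested on simulated libraries drawn independently of each other. These lack the likeness between libraries of the same number described below, so they cannot show how it affects the tests. Tables and figures used Python 3.11.15, pandas 2.3.3, NumPy 2.4.6 and Matplotlib 3.10.9.

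Replicate numbers are in the labels, and the study's methods name littermates. Over 11359 genes, libraries of the same number deviated from their group means alike between DZ genotypes (r 0.65, 0.78 and 0.69) and between the zones of R3-cKO (0.42, 0.78 and 0.65), so the number served there as a block in an alternative fit.

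All 10 genes and Runx3 were named. From each pathway list up to 4 genes past the threshold per direction by zone, and 2 by lowest p for genotype, were named, with Acan and the 10 genes most alike over the 12 libraries. Chst15, Dse, Chst12, Cspg4, Dcn and single marker genes were named after their values were seen. The genes and lists were chosen with earlier results of these data known. Alternatives were other filters, pseudocounts, scalings and fits, the block, and leaving out libraries.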

Additional observations from a re-analysis of the deposited data

How the results depend on the processing

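Counts of genes past the threshold were 0 for genotype in SFZ, genotype in DZ and the interaction under every alternative run, so they say nothing of stability. By zone they moved. In R3-Cntl, 140 genes passed, against 0 without a filter, 8 where genes had to average 10 FPKM or more, 88 and 29 with pseudocounts of 0.1 and 5, 1 with quantile normalization, 17 with median-of-ratios factors, 831 with the library number as a block, 798 with all 12 libraries in 1 model, and 0 to 505 with a library left out. There the same number ran together for 1 alone (r 0.58, 0.11 and -0.15 over genes), as between genotypes in SFZ (0.79, -0.09 and -0.42), where the block gave 0. R3-Cntl SFZ libraries 2 and 3 ran closer to the other number, 2 with R3-Cntl DZ 3 (0.38) and R3-cKO SFZ 3 (0.45) and 3 with R3-Cntl DZ 2 (0.58) and R3-cKO SFZ 2 (0.69). Why was not tested. In R3-cKO, 2 passed, against 7 without a filter, 0 with the mean of 10, 1 and 1 with the pseudocounts, 352 with the block, 167 with all libraries in 1 model, and 0 to 5 with a library left out. Over both genotypes 2725 passed, against 4083 with the block, 3965 with a block over genotype and number, 1162 with the mean of 10, 1276 without the 4 libraries that lack Y-linked transcripts, and 1624 (without R3-Cntl SFZ library 2) to 2899 with a library left out. Fewer genes or libraries enter some of these fits, and otherwise the cause was not tested.

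Of the 10 genes over both genotypes, Chst11, Slc26a2, Xylt1, Csgalnact1, Chsy1 and Papss1 passed in all 21 alternatives and Papss2 in 20, and the direction of Chpf turned with median-of-ratios factors (0.0051). In R3-cKO, Chpf read 0.018 with quantile normalization, 0.063 with median-of-ratios factors and -0.14 to 0.053 with a library left out. In R3-Cntl, Ugdh ran from -0.18 to 0.35 with a library left out.

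Genotype values in SFZ turned with single libraries left out: Xylt1 -0.14 to 0.46, Csgalnact1 -0.070 to 0.39, Chst3 -0.31 to 0.11, Chst11 -0.15 to 0.88, Papss1 -0.19 to 0.048, Papss2 -0.41 to 0.73, Slc26a2 -0.39 to 0.21 and Ugdh -0.79 to 0.13. Without the libraries that lack Y-linked transcripts Chst3 read 0.27 and Slc26a2 0.045 there. In DZ, Chst3 read -0.021 with quantile normalization and -0.094 to 0.21 with a library left out, and Ugdh -0.25 to 0.28, or -0.13 without the libraries that lack Y-linked transcripts. The interaction ran from -0.075 to 0.34 for Chst3, -0.17 to 0.071 for Papss1 and -0.071 to 0.86 for Ugdh, and was -0.58 for Chst3 without the 4 libraries. The cause was not tested.

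Chst3 had no value with the mean of 10 FPKM. The fits without libraries that lack Y-linked transcripts, the block over genotype and number, and other scalings of the lists were chosen after seeing the data. Depth is unknown, so what it limits cannot be given.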
